A study of Mus musculus with 6 samples.

Results

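The 10 genes described here, Mcm2, Mcm3, Mcm4, Mcm5, Mcm6, Mcm7, Cdc6, Cdt1, Gins1 and Gins2, encode parts of the machinery that licenses replication origins and unwinds DNA. They were found by gene name among the non-control probes of an Agilent mouse array, which gave 12 probes for 10 of the 35019 names on the array. Mcm3 and Cdc6 had 2 probes each and the other genes 1. The RNA came from sorted satellite cells, which regenerate skeletal muscle, of C57BL6 mice. In 3 samples the mice carried a knockout of Rpt3 (gene Psmc4), an ATPase of the proteasome's regulatory particle, restricted to satellite cells. The other 3 samples came from control mice. Each sample gave 1 array. The labels used here name no Cre driver, control genotype, age or time after deletion, so it is not known from them which alleles the controls share with the knockouts.

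Licensing prepares a chromosome for exactly one round of copying. In late mitosis and G1, the origin recognition complex, Cdc6 and Cdt1 load the ring of Mcm2 to Mcm7 onto DNA as an inactive double hexamer. In S phase, kinases, Cdc45 and the GINS complex, which holds Gins1 and Gins2, convert it into the active helicase. Cdt1, Cdc6 and the Cdt1 inhibitor geminin are themselves destroyed by the proteasome at set points of the cycle, and the finished helicase is pulled off DNA after Mcm7 is ubiquitinated. Resting satellite cells are outside the cycle, and the genes are switched on by E2F factors when cells enter it.

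E2F binds GC-rich words near the start sites of many of these genes, so the promoter windows were searched for the words TTTGGCGC, TTTCGCGC, TTTCCCGC and TTTGCCGC on both strands. A window ran from 250 bases before to 50 bases after the start in RefSeq's table for GRCm38.p6, which matched 7 of the 10 genes. At least 1 word was present in 6 of these 7 genes (Mcm3, Mcm5, Mcm6, Mcm7, Cdc6 and Cdt1) and absent from the window of Mcm2. Mcm7 had windows 1 and 2, and its window 2 held no word. Of 27025 genes in the table, 704 (2.60%) held one. The words can overlap: in Mcm5 and Mcm6 a pair of words on opposite strands shares its GCGC core. Mcm3, Mcm6 and Mcm7 hold further words. The CCAAT box, searched on both strands as a reference word, was in 5 of the 7 genes and in 41.1% of all genes. Below are stretches of 30 bases on the gene's strand, 1 for each gene with a word, with the matched word in capitals and written 5′ to 3′ (a word in the other strand appears as its reverse complement). A match describes the sequence and is not a measured binding site.

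Mcm3 (chr1:20820263-20820292, minus strand): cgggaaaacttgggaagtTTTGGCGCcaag
Mcm5 (chr8:75109345-75109374, plus strand): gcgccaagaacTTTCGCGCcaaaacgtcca
Mcm6 (chr1:128359797-128359826, minus strand): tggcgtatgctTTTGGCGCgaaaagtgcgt
Mcm7 (chr5:138171849-138171878, minus strand): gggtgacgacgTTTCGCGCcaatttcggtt
Cdc6 (chr11:98908002-98908031, plus strand): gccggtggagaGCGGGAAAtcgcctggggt
Cdt1 (chr8:122568035-122568064, plus strand): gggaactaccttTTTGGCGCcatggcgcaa

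The values below are log2 signals relative to the array's 75th percentile, so 0 is the level of that percentile. They are not compared between probes, because probes differ in how strongly they bind. Over the whole array, 44.2% to 57.9% of probes were well above background. The lowest share was that of knockout 3, which stood apart from the other 5 arrays on the first principal component (72.4 against -24.5 to -4.53). Of the 12 licensing probes, 4 were well above background on knockout 3, 6 to 9 on the other knockout arrays and 7 to 10 on the control arrays. Knockout 1 and 2 lay in row 1 of the slide and the other 4 arrays in row 2. The targeted gene Psmc4 was at 2.003, 2.02 and 1.52 in knockout 1, 2 and 3 and between 2.58 and 2.89 in the controls, a log2 difference of -0.92 (SE 0.23; limma, adjusted p = 0.408). All 9 satellite cell markers were tested: 5 were above and 4 below 0, and 2 with lower knockout means, Myf5 and Calcr, had an unadjusted p under 0.05. Myf5 was well above background on 0 of 3 knockout and 3 of 3 control arrays and was at least 2.23-fold lower in knockout cells (against the lowest signal well above background; limma, adjusted p = 0.185). Calcr, a marker of resting satellite cells, differed by -1.04 (limma, adjusted p = 0.432). The other 7 lay between Chodl at -0.63 and Sdc4 at 0.48, with Pax7 at 0.17. Whether the 3 samples of a group came from separate sorts is not stated, so the p-values measure the spread between these samples.

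None of the licensing genes differed past the threshold between knockout and control cells. A gene entered the test if all 3 arrays of either group read a probe well above background, which 7 of the 10 genes met, against 55.1% of all names. By limma, 0 of the 7 had an adjusted p under 0.05 and 2, Mcm3 and Cdc6, had an unadjusted p under 0.05, both with lower means in knockout cells. Over all 19300 tested features the same rules called 0% and 7.11% (4.27% with lower means). Each of the 7 had a lower mean in knockout cells, beside 44% of all features. Mcm3, Gins2 and Cdc6 passed the filter through the control arrays alone, which favours lower means in knockout cells, so the tally of the 7 is given as a description. Their median log2 difference was -0.57 beside 0.04 over all tested features. Over the 4 genes above background on all 6 arrays (Mcm4, Mcm6, Mcm7 and Cdt1) it was -0.26, and over all 10 genes without a filter it was -0.29, with 9 of 10 below 0 beside 42.1% of all names.

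**Figure D1:**
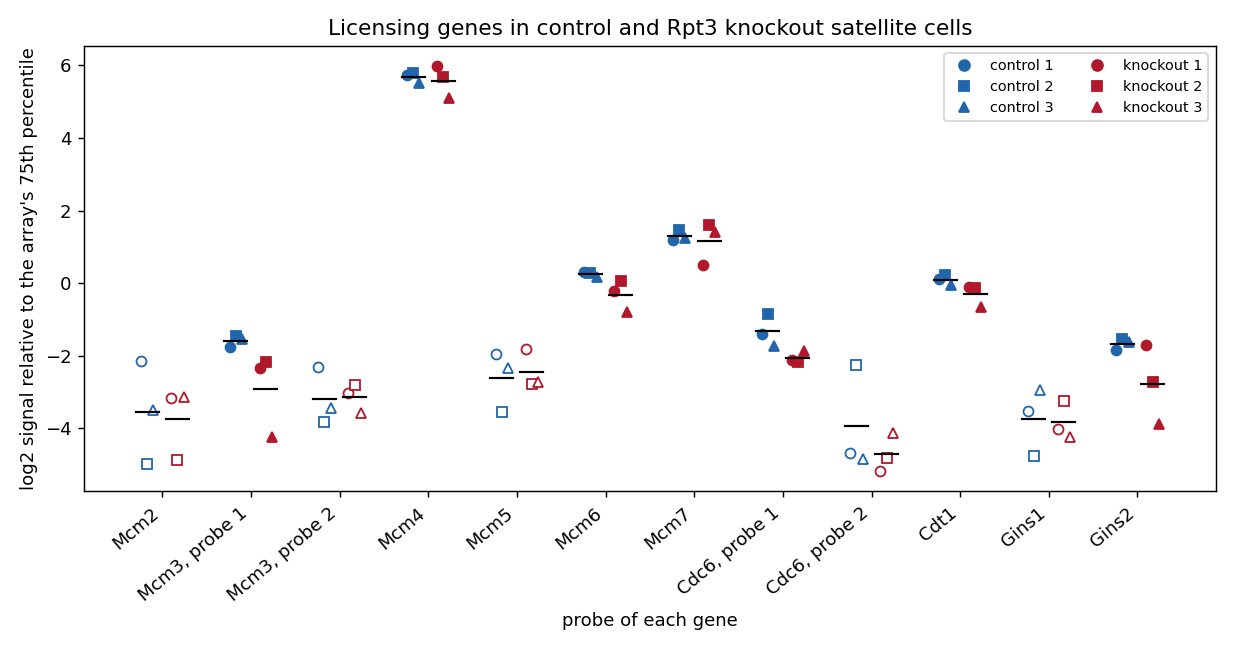
Log2 signal relative to the array's 75th percentile (vertical axis) for each of the 12 probes (horizontal axis) in 3 control (blue) and 3 knockout (red) samples; symbols give the replicate number, black bars the group means, and open symbols mark probes that did not pass the filter. For Mcm3, Mcm6, Cdc6 and Cdt1 every filled knockout point lies below every control point, while Mcm4 and Mcm7 overlap.

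Of the hexamer subunits, Mcm3, Mcm4, Mcm6 and Mcm7 were tested, each with a mean below that of the controls by -1.32, -0.10, -0.57 and -0.12 on the log2 scale; differences between subunits were not tested. Mcm6, a subunit of the catalytic core with Mcm4 and Mcm7, was measured well above background on all arrays. Knockouts 1 to 3 read -0.23, 0.07 and -0.79, against 0.32, 0.27 and 0.17 for controls 1 to 3. The knockout values all lay below the controls, with knockout 3 lowest. Knockout cells averaged -0.32 ± 0.43 (SD, n = 3) and controls 0.25 ± 0.07 (SD, n = 3). The log2 difference of -0.57 (SE 0.26, 95% interval -1.18 to 0.04; limma, adjusted p = 0.757) corresponds to 67.5% of the control signal. Without knockout 3 it was -0.33 (adjusted p = 0.660), with normexp background correction -0.32 (adjusted p = 0.994), and with the slide's row blocked -1.04 (adjusted p = 0.256). Row 2 alone, which holds both groups, gives the same estimates as that block; both set knockout 3 against 3 controls, and knockout 3 is assumed to vary like the others. Normexp was run here and below with an offset of 50 added to every signal. That offset shrinks log2 differences, most of all for dim probes, so smaller values with normexp are partly built in. The Mcm6 probe lies on chromosome 1 of mm9, from 130228178 to 130228237.

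Mcm3, which sits between Mcm7 and Mcm5 in the ring, was tested on 1 of its 2 probes. On that probe knockouts 1 to 3 read -2.33, -2.17 and -4.22, against -1.76, -1.45 and -1.55 for controls 1 to 3. Knockout 3 lay far below the other arrays and was not well above background, while knockout 1 and 2 lay below the lowest control (-1.76). The difference was -1.32 (SE 0.51, 95% interval -2.52 to -0.13; limma, adjusted p = 0.642). It was -0.67 without knockout 3 (adjusted p = 0.444), -0.32 with normexp (adjusted p = 0.954) and -2.64 with the slide's row blocked (adjusted p = 0.187).

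The second Mcm3 probe did not show the same difference. It was well above background on 1 array of each group. Knockouts 1 to 3 read -3.03, -2.80 and -3.59 on it, against -2.31, -3.83 and -3.43 for controls 1 to 3. The groups overlapped, and the difference was 0.05 (95% interval -1.02 to 1.12 in a fit of all probes). The 2 probes share 43 of their 60 bases on chromosome 1 of mm9 (20793119 to 20793178 and 20793136 to 20793195), so they read nearly the same part of the transcript. In the shared part they differ at 1 base, A31G, counted from the 5′ end of the probe designed on the RefSeq transcript NM_008563. The probe designed on the clone AK088142 carries the second base and is the one that passed the filter. The stretches below show that base in capitals.

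NM_008563 probe: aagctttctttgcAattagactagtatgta
AK088142 probe: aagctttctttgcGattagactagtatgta

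Mcm4 and Mcm7, the core partners of Mcm6, showed no clear shift. For Mcm4, knockouts 1 to 3 read 5.98, 5.68 and 5.09, against 5.75, 5.78 and 5.51 for controls 1 to 3. Knockout 1 was the highest of the 6 arrays and knockout 3 the lowest, so the groups overlapped. The difference was -0.10 (SE 0.27, 95% interval -0.73 to 0.54; limma, adjusted p = 0.983), and 0.15 without knockout 3 (adjusted p = 0.862). With the slide's row blocked the Mcm4 difference was -0.59 (adjusted p = 0.305). The Mcm4 probe lies on chromosome 16 of mm9, from 15624372 to 15624431.

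Mcm7, the subunit ubiquitinated before the finished helicase is pulled off DNA, read 0.49, 1.62 and 1.41 on knockouts 1 to 3. Controls 1 to 3 read 1.18, 1.48 and 1.24. Here knockout 1, the highest array for Mcm4, was the lowest, and knockout 2 was the highest. The difference was -0.12 (SE 0.32, 95% interval -0.86 to 0.62; limma, adjusted p = 0.983), and 0.22 without knockout 1 (adjusted p = 0.857). With the slide's row blocked it was 0.12 (adjusted p = 0.910). The intervals of Mcm4 and Mcm7 still include a reduction of about the size seen for Mcm6. The Mcm7 probe lies on chromosome 5 of mm9, from 138605925 to 138605984.

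Mcm2 and Mcm5, the subunits at the gate of the ring, were near the detection limit. Mcm2 was well above background on 0 of 3 knockout arrays and 1 of 3 control arrays; knockouts 1 to 3 read -3.16, -4.88 and -3.15, against -2.15, -4.98 and -3.50 for controls 1 to 3. Mcm5 was well above background on 1 array of each group; knockouts 1 to 3 read -1.81, -2.77 and -2.73, against -1.94, -3.56 and -2.33 for controls 1 to 3. In both genes the groups overlapped. A fit of all probes gave -0.19 for Mcm2 (95% interval -2.03 to 1.66) and 0.17 for Mcm5 (95% interval -1.003 to 1.35), intervals too wide to show a change of the size seen in the other subunits. The probes lie on chromosome 6 (88833619 to 88833678) and chromosome 8 (77651350 to 77651410) of mm9.

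On their tested probes, both loading factors read lower on every knockout array than on every control array, without passing the threshold. Cdc6, the ATPase that recruits the hexamer to the origin complex, read -2.11, -2.18 and -1.87 on knockouts 1 to 3, against -1.41, -0.84 and -1.73 on controls 1 to 3. All knockout values lay below the controls, but knockout 3, not well above background, was close to control 3. The difference was -0.72 (SE 0.27, 95% interval -1.36 to -0.09; limma, adjusted p = 0.628), or 60.6% of the control signal. This gene did not follow knockout 3: without it the difference was -0.81 (adjusted p = 0.531). It was -0.48 without control 2, and -0.23 with normexp (adjusted p = 0.999). With the slide's row blocked it was -0.54 (adjusted p = 0.465). The other Cdc6 probe was well above background on 0 of 3 knockout and 1 of 3 control arrays, and its groups overlapped. Knockouts 1 to 3 read -5.18, -4.81 and -4.14 on it, against -4.69, -2.26 and -4.85 for controls 1 to 3. Its difference of -0.77 (95% interval -2.44 to 0.89 in a fit of all probes) rests largely on control 2. The probe of the test lies on chromosome 11 of mm9, from 98782986 to 98783045.

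Cdt1, which delivers the hexamer and is destroyed by the proteasome in S phase, was well above background on all arrays. Knockouts 1 to 3 read -0.10, -0.13 and -0.67, against 0.13, 0.24 and -0.06 for controls 1 to 3. The groups did not overlap, but knockout 1 and control 3 were nearly level. The difference was -0.40 (SE 0.24, 95% interval -0.95 to 0.16; limma, adjusted p = 0.876). Without knockout 3 it was -0.21 (adjusted p = 0.781), with normexp -0.20 (adjusted p = 0.999), and with the slide's row blocked -0.77 (adjusted p = 0.276). These values are of Cdt1 mRNA; the protein was not measured. The probe lies on chromosome 8 of mm9, from 125096893 to 125096952.

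The GINS genes ended on different sides of the detection limit. For Gins2, knockouts 1 to 3 read -1.71, -2.71 and -3.88, against -1.84, -1.52 and -1.63 for controls 1 to 3. Knockout 1 lay among the controls, and knockout 2 and 3 lay below them, neither well above background. The difference was -1.11 (SE 0.49, 95% interval -2.25 to 0.04; limma, adjusted p = 0.739), -0.55 without knockout 3 (adjusted p = 0.692) and -0.17 with normexp (adjusted p = 0.999). With the slide's row blocked it was -2.22 (adjusted p = 0.244). Gins1 was well above background on 0 of the 6 arrays, and its readings (knockout -4.23 to -3.24, control -4.77 to -2.95) give no order. The probes lie on chromosome 8 (123112627 to 123112686) and chromosome 2 (150756868 to 150756927) of mm9.

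**Figure D2:**
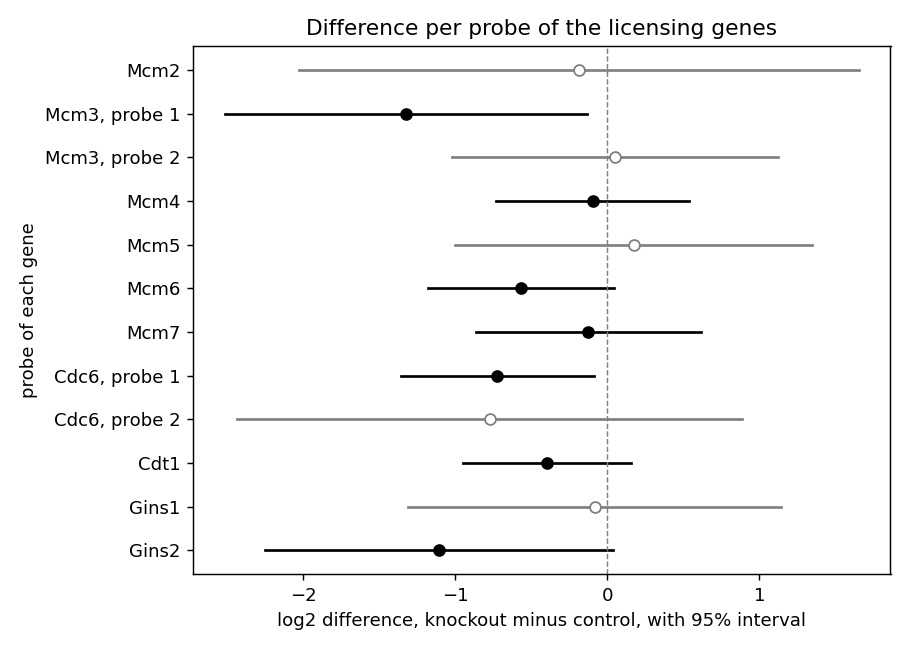
Log2 difference, knockout minus control (horizontal axis), with its 95% interval for each probe (vertical axis); black marks tested probes, grey with open points probes that did not pass the filter, from a fit of all probes. The intervals of Mcm3 (first probe) and Cdc6 (first probe) end below 0, and all others include 0.

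For 4 of the 7 tested genes (Mcm3, Mcm6, Cdc6 and Cdt1) the 3 knockout values lay below the 3 control values, beside 5.68% of all tested features; Mcm3 and Cdc6 are among those that passed the filter through controls alone. An exact permutation test of 3 against 3 cannot give a 2-sided p below 0.1. Centred on each gene's own mean, the 7 genes averaged -0.08, -0.06 and -0.79 on knockouts 1 to 3, against 0.25, 0.48 and 0.19 on controls 1 to 3. By the median of the 7 genes, knockout 2 (0.045) lay above control 3 (0.037), while knockout 1 (-0.086) and knockout 3 (-0.57) lay below all controls by both the mean and the median. The low mean of knockout 3 was carried by Mcm3 (-1.98) and Gins2 (-1.67), neither well above background there. Knockout 3 was the lowest array for 5 of the 7 genes, beside 25.1% of all tested features, the exceptions being Mcm7 and Cdc6. It was also the array with the lowest share of probes above background; the part of that in the lower values was not tested.

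**Figure D3:**
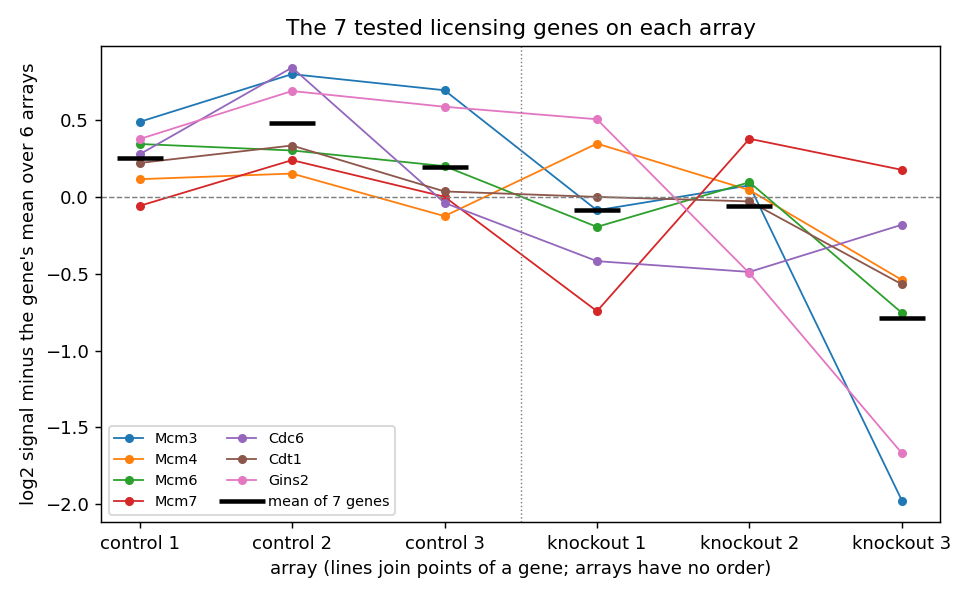
Log2 signal minus the gene's mean over 6 arrays (vertical axis) on each array (horizontal axis) for the 7 tested genes; lines join the points of a gene and black bars are the mean of the 7. The mean lies between 0.19 and 0.48 on the control arrays, at -0.08 and -0.06 on knockout 1 and 2, and at -0.79 on knockout 3, where Mcm3 and Gins2 are lowest.

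Outside the licensing genes themselves, the factors that mark origins and complete the helicase showed no common direction. Of 23 such genes, 14 were tested, and by limma 0 had an adjusted p and 0 an unadjusted p under 0.05. There were 7 above and 7 below 0, with a median of 0.01. Gins3, the GINS subunit measured well on every array, ranged from 4.93 to 5.14 over all 6 and differed by -0.02 (95% interval -0.47 to 0.44). Whether Gins3 and Gins2 differ in response was not tested. Its partner Gins4 differed by -0.50 (SE 0.40), and Cdc45, which joins GINS in the helicase, by 0.22 (SE 0.32). Wdhd1, which ties the helicase to DNA polymerase, differed by -0.48 (SE 0.28), and Dbf4, the activator of the kinase that fires origins, by -0.56 (SE 0.45). Mcm9, a relative that acts in repair, differed by -0.41 (SE 0.46; limma, adjusted p = 0.983). Without knockout 3 Mcm9 was at 0.056, and with the slide's row blocked Wdhd1 was at 0.025. The geminin gene Gmnn was well above background on 1 of 3 knockout and 2 of 3 control arrays, and Orc1 on none of the 6.

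Genes for the turnover of licensing factors held both directions. Of 20, 18 were tested, and by limma 0 passed over all features, while 5 with higher and 1 with lower knockout means had an unadjusted p under 0.05, beside 2.83% and 4.27% of all features. The one below was Dtl, which encodes the adaptor that brings Cdt1 to its ubiquitin ligase in S phase. For Dtl, knockouts 1 to 3 read -2.39, -2.14 and -3.93, against -0.68, -1.75 and -1.15 for controls 1 to 3, and the groups did not overlap. Knockout 3 was not well above background for Dtl. The gene passed the filter through the control arrays alone, which favours a lower mean in knockout cells. Its difference was -1.63 (SE 0.50; limma, adjusted p = 0.499), and -0.36 with normexp. Ddb1, Cul4a and Cul4b of the same ligase differed by -0.04, 0.43 and 0.19, and Skp2, of the other Cdt1 ligase, by -0.33 (SE 0.56). On the other side were parts of the p97 machine that extracts the ubiquitinated helicase. Nploc4 differed by 1.24 (SE 0.25; limma, adjusted p = 0.328), Vcp, which encodes p97, by 1.03 (SE 0.24; adjusted p = 0.356), and the cofactor gene Ubxn7 by 0.62 (SE 0.20; adjusted p = 0.549). The p97 genes serve many other substrates as well.

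Of 13 genes for E2F factors and pocket proteins, which control licensing genes, 10 were tested. Of these, 8 lay below 0, beside 44% of all features, and the median was -0.28. By limma 0 passed over all features, and 3 had a lower knockout mean with an unadjusted p under 0.05, beside 4.27% of all features. These were E2f8, a repressor that is itself switched on in S phase, at -1.53 (SE 0.32; adjusted p = 0.328), E2f2, an activator, at -1.17 (SE 0.36; adjusted p = 0.501), and the dimer partner Tfdp2 at -0.69 (SE 0.24; adjusted p = 0.606). E2f1, the activator best known for licensing genes, differed by 0.12 (SE 0.29), and Rb1, the pocket protein that holds E2F in check, by -0.33 (SE 0.32). E2f8 was well above background on 1 of 3 knockout arrays, and its difference was -0.42 with normexp. E2f8 and E2f5 passed the filter through the control arrays alone, which favours lower means in knockout cells, so the tallies of this list are given as a description.

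Among 16 markers of S phase and cycling cells, 11 were tested, with 5 above and 6 below 0 and a median of -0.33. By limma 0 passed the threshold, and 5 had a lower mean at an unadjusted p under 0.05, beside 4.27% of all features. The markers Mki67, Ccna2 and Prim1 passed the filter through the control arrays alone, which favours lower means in knockout cells, so these tallies are given as a description. Uhrf1, a reader of newly copied DNA, read 3.92, 3.62 and 4.01 on knockouts 1 to 3, against 5.01, 4.92 and 5.17 on controls 1 to 3. Uhrf1 did not follow knockout 3, which was the highest of the knockout arrays, and its difference was -1.18 (SE 0.21; limma, adjusted p = 0.252). Rrm2, the S phase subunit of ribonucleotide reductase, differed by -0.86 (SE 0.21; adjusted p = 0.361). Mki67, the gene of the proliferation antigen Ki-67, differed by -2.03 (SE 0.42; adjusted p = 0.328) and the cyclin gene Ccna2 by -2.07 (SE 0.65; adjusted p = 0.529). Both were well above background on 1 of 3 knockout arrays, so these sizes rest largely on readings near background. With normexp, whose offset of 50 shrinks the differences of dim probes, each was at -0.58. Pcna, the sliding clamp of the polymerase, differed by 0.39 (SE 0.25, 95% interval -0.18 to 0.97; limma, adjusted p = 0.891). In sorted bulk cells, fewer cycling cells and less RNA per cell cannot be told apart.

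**Figure D4:**
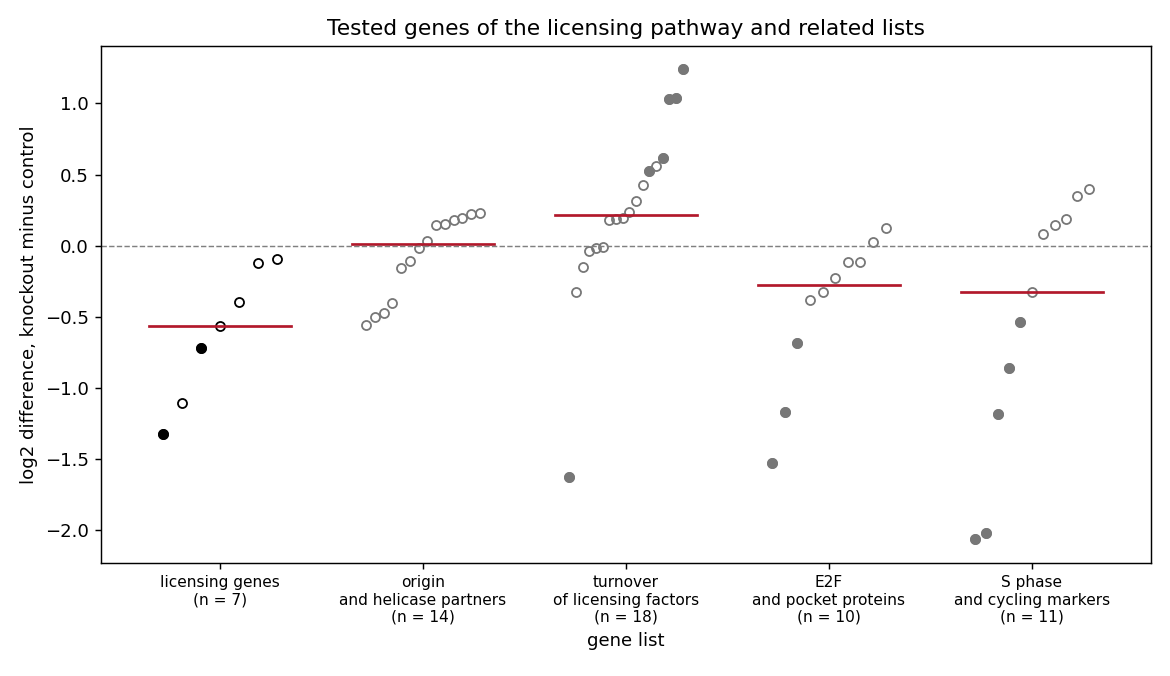
Log2 difference, knockout minus control (vertical axis), of the tested genes of 5 lists (horizontal axis, with the number tested); filled points have an unadjusted limma p under 0.05 and red bars are list medians. The licensing genes, the E2F and pocket protein genes and the S phase markers reach below -1. The 14 origin and helicase partners lie between -0.56 and 0.23, and Dtl stands alone at -1.63 in the turnover list.

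Some markers of other cells differed between the groups, none past the threshold over all features. The summed signal of 6 red blood cell markers was 5.46 to 10.2 times the array's 75th percentile in knockout and at most 4.20 times in control cells; of these, Ahsp was well above background on 0 of the 6 arrays. Neutrophil markers summed to 0.927 to 16.5 in knockout and 1.36 to 3.48 in control cells, highest in knockout 1 and 2 and lowest in knockout 3. The sums of endothelial, macrophage, lymphocyte, muscle fibre, mural and Schwann, and fibro-adipogenic markers overlapped between the groups. Within these lists, single genes had an unadjusted limma p under 0.05: the fibro-adipogenic marker Dpp4 at -1.12 and the B cell marker Cd79a at 0.73, without overlap between the groups, and the macrophage marker C1qb at 0.81, with overlap. Of the red blood cell markers, the haemoglobin gene Hba-a1 was at 1.88, without overlap. The part of these cells in the licensing values was not tested.

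The features whose centred profile lay nearest to the mean of the 7 licensing genes, by root mean square distance over the 6 arrays, were Fam133b (0.0830), Fhl2 (0.0885), Pole3 (0.102), Mcc (0.103) and Ift122 (0.104). Pole3, whose difference of -0.46 was 0.12 with the mean of its probes, encodes a small subunit of the leading-strand DNA polymerase, Fhl2 a LIM protein of muscle and Ift122 a transport protein of the cilium. Among the licensing genes themselves, Mcm6 (0.114) and Cdt1 (0.131) lay close to their mean, with 10 and 21 features nearer. Each of the 7 genes is part of that mean, which draws it nearer, so their ranks are given as a description. Mcm3 (0.554), Mcm7 (0.540) and Gins2 (0.505) lay farther off, with 10763, 10146 and 8783 features nearer. This distance counts the size of the differences between arrays as well as their order. Mcm3 (-1.98) and Gins2 (-1.67) were lowest on knockout 3, as was the mean of the 7 genes (-0.79), but lay further down. Mcm7 was lowest on knockout 1 (-0.74), so its order over the arrays differed from that of the mean.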

How the data were processed

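RNA of 3 knockout and 3 control samples (5 ng each, amplified whole; Cy3 dye, per the labels) was read on 1-colour Agilent arrays. Each deposited scanner file holds linear intensity values, which Feature Extraction background-corrected and detrended for the authors. The version is 10.7.1.1 in the file headers and 9.5.1.1 in the submitters' processing notes. The deposited value table also holds intensity, with the same median of 17.7 in every column, and was an alternative source.

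Each array's 75th percentile of log2 processed signal was subtracted from its values. Control and flagged spots were left out; 0 spots were saturated. A probe passed where well above background on all 3 arrays of a group (26111 of 55681 probes), and the brightest passing probe stood for a name, giving 19300 features; probes with no gene name were kept as features of their own. Names were updated through accessions matched to RefSeq for 27235 probes. Probe coordinates are the files', on mm9; no mm9 gene models were used, so exon or UTR positions are not given.

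Groups were compared with limma 3.58.1 (lmFit and eBayes, 2-sided, Benjamini-Hochberg over all features, threshold 0.05) in R 4.3.3; intervals are 95%. The number of arrays limits the precision: the median SE was 0.27. The fit was tested on simulated data.

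The members, lists and tests were chosen with earlier results of these data known. All licensing genes and Psmc4 are named, plus Cdc45, Gmnn, Orc1, Pcna and Mki67, the 4 genes of smallest p in each pathway list, and the 5 nearest profiles; Gins3, Ddb1, Cul4a, Cul4b, Skp2, E2f1 and single marker genes were named after their values were seen. No set test was run.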

Additional observations from a re-analysis of the deposited data

How the results depend on the processing

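Across 20 alternatives, 0 licensing genes passed the threshold of limma under any, with 0 to 4 at an unadjusted p under 0.05. Mcm6, Cdt1, Mcm3, Cdc6 and Gins2 stayed below 0 in each alternative that could measure them. For Mcm3 and Cdc6 this holds for the probe that passed the filter, since no alternative used the second probe. The second Mcm3 probe differed by 0.05. Over all features, limma called 1 higher with normexp, 1 lower with quantile normalization and 1 lower in the deposited table. It called 2 lower with median scaling, 2 higher and 1 lower with an intensity trend and robust moderation, and 3 higher and 6 lower with array weights. The median of the licensing genes was -0.20 with normexp, -0.29 with no filter on dim probes (10 genes) and -0.26 with probes above background on all 6 arrays (4 genes, by construction). The normexp value is partly shrunk by its offset of 50. Leaving out 1 array at a time gave medians from -0.66 to -0.33, the latter without knockout 3, and 0 calls. With the replicate block the median was -0.57 and 0 features were called. Same-numbered samples were not shown to be pairs: their deviations correlated at 0.072, -0.016 and 0.091, and knockout 2 correlated best with control 1. With slide row as a block, and in slide row 2 alone, the median was -0.77; both rest on knockout 3 against 3 controls.

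Signs turned for 6 genes, whose main values ran from -0.48 (Wdhd1) to 0.22 (Cdc45), and the cause was not tested. With array weights Mcm4 was 0.035, Mcm7 0.0048 and Cdc45 -0.11. Leaving out 1 array at a time gave -0.30 to 0.15 for Mcm4, -0.82 to 0.056 for Mcm9 and -0.056 to 0.49 for Cdc45, the turned sign in each without knockout 3. It gave -0.34 to 0.22 for Mcm7, turned without knockout 1. With slide row as a block or alone Mcm7 was 0.12 and Wdhd1 0.025. Pole3 was 0.12 with the mean of its probes. The alternatives for genes outside the licensing set were added after seeing the data. Low signal limits Mcm2, Mcm5, Gins1 and the second probes of Mcm3 and Cdc6.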
